A study of Mus musculus with 6 samples.

Results

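The genes Zic1, Zic2, Zic4 and Zic5 were examined in whole mouse embryos at embryonic day 9.5, through all 8 probe sets that the array annotation assigns to 1 of these 4 symbols alone, out of 45101 probe sets on the array. Zic1 had 2 probe sets, Zic2 had 1, Zic4 had 2 and Zic5 had 3. The 6 arrays, numbered here by litter, compared 3 RFC1-/- embryos with 3 RFC1+/+ littermates, 1 embryo per array and 1 pair from each of 3 litters. RFC1 (Slc19a1) encodes the reduced folate carrier, through which cells take up folate. The targeted allele had been bred onto the inbred SWV background, the RFC1-/- embryos were homozygous for it and the RFC1+/+ embryos lacked it. The dams were RFC1+/-, each carried both embryos of a pair, and all were injected with 25 mg/kg folic acid daily from embryonic day 0.5. The labels describe each RFC1-/- embryo as affected, with a neural tube open along its length (craniorachischisis) and no fusion of chorion and allantois, and each RFC1+/+ embryo as normal, so that genotype and malformation cannot be told apart.

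Zic genes encode transcription factors with a block of C2H2 zinc fingers related to that of the Gli proteins, which carry the hedgehog signal to the nucleus. In the vertebrate embryo they are active in the neural plate and then mainly in the dorsal neural tube, in neural crest and in somites, and they act in neural tube closure, in formation of the midline of the forebrain and in growth of the cerebellum. Loss of function of Zic2 is a known cause of holoprosencephaly and of open neural tube defects, and deletion of the neighbouring pair of human genes ZIC1 and ZIC4 has been linked to Dandy-Walker malformation of the cerebellum. Zic5 acts in neural crest and neural tube closure.

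Zic1, Zic2 and Zic5 were lower in RFC1-/- embryos on the probe sets with a level above background, and Zic4 was near background and did not pass the test. Of the 8 probe sets, 5 were called lower and 0 higher at an adjusted p under 0.05 in a limma fit that paired littermates, with p-values adjusted over all 45101 probe sets. Among all probe sets, 0.882% were called lower. The 5 called probe sets were both of Zic1, that of Zic2 and 2 of the 3 of Zic5. In 6 of the 8 probe sets every RFC1-/- embryo lay below every RFC1+/+ embryo, against 11.5% of all probe sets. The count of 5 became 0 without litter 1, 3 without litter 2 and 4 without litter 3. Without litter 1, 5 of the 8 had an unadjusted limma p under 0.05, against 4146 of all 45101 probe sets. Values are log2 expression made by the authors with robust multiarray averaging (RMA), and a difference of 1 on this scale is a 2-fold difference in signal. Array values give no exact comparison of 1 probe set's level with another's, so expression is compared between embryos. Levels of different probe sets serve only as rough guides, to pick the brightest, to set background and to leave out dim ones.

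Slc19a1, the targeted gene, was higher in the embryos labelled RFC1-/- on its brightest probe set (log2 difference 0.93 ± 0.10 SE, limma adjusted p = 0.00809). Its other probe sets differed by 1.19, which was called, and by 0.02, which was not. Which exons the allele removes is not stated in the text used here, so these probe sets check nothing, and genotypes and directions rest on the labels. Array medians ranged from 5.43 to 5.49, and 1241 probe sets were called in all, 843 higher and 398 lower. The RNA was taken from whole embryos, in which fewer cells of a type and less RNA per cell cannot be told apart. The study describes RFC1-/- embryos at this folic acid dose as delayed in development by mid-gestation. A difference in stage between littermates can thus not be told apart from genotype either, and it was not tested.

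In the RefSeq table of assembly GRCm38.p6, Zic1 and Zic4 are neighbours on chromosome 9 and Zic5 and Zic2 on chromosome 14, with no other protein-coding gene between them in either pair. The RefSeq promoter table held 3 of the 4 members, without Zic2, and it places the start sites of Zic1, on the minus strand, and Zic4, on the plus strand, 3204 bases apart. Below are the 250 bases before the start site of each, 5′ to 3′ on the strand of the gene, at chr9:91365769-91366018 for Zic1 and chr9:91368722-91368971 for Zic4. They are shown because Zic1 had the largest difference of the members and its neighbour Zic4 did not pass the test. Capitals mark matches on either strand to 4 motifs. The GC box, bound by Sp factors, was searched as GGGCGG. The box bound by the factor NF-Y was searched as CCAAT. For the TATA box, where the basal machinery binds, the letters were TATAAA. For the E-box, bound by many basic helix-loop-helix factors, they were CACGTG.
Zic1: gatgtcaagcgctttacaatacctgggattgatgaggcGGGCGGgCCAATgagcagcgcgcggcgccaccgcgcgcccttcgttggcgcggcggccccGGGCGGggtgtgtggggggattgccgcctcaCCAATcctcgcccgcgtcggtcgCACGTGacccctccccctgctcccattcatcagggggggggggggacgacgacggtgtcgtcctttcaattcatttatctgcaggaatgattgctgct
Zic4: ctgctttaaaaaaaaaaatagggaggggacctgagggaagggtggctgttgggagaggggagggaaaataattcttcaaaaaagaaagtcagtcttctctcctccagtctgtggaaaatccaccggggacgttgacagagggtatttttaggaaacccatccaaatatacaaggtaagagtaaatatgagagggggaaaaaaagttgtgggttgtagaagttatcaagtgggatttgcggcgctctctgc
The Zic1 stretch held 2 GC boxes, 2 NF-Y boxes and 1 E-box, with no overlap between them, and the Zic4 stretch held none of the 4 motifs. Of the 32851 promoters in the table, 32.7% held a GC box, 33.8% an NF-Y box, 12.4% a TATA box and 6.02% this E-box over the same length. GC content was 66.0% with 27 CpG sites before Zic1 and 44.4% with 4 CpG sites before Zic4, against medians of 52.4% and 6 over all promoters. Before Zic5, at chr14:122465659-122465908 on the minus strand, GC content was 62.4% with 11 CpG sites, and none of the 4 motifs occurred. A match of letters is a description of the sequence and not a bound site.

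Zic1, a factor of the dorsal neural tube, cerebellar precursors and somites, had the largest difference of the 4 genes. On its brighter probe set (1423477_at, Zic1 a in the plots) RFC1+/+ embryos measured 10.86, 10.61 and 10.62 in litters 1, 2 and 3, and their RFC1-/- littermates 9.12, 9.64 and 8.51. The groups did not overlap, and the RFC1+/+ values lay close together while the RFC1-/- values were spread, with litter 3 lowest. Zic1 was thus 3.05-fold lower (95% confidence interval 2.19 to 4.23, log2 difference -1.61 ± 0.20 SE, limma adjusted p = 0.0130). The other probe set (1439627_at, Zic1 b) gave 10.64, 10.67 and 10.16 in RFC1+/+ embryos and 8.63, 9.21 and 7.56 in RFC1-/- embryos. It too separated the groups, with the same order of the RFC1-/- embryos, litter 2 highest and litter 3 lowest. The difference there was 4.06-fold (95% confidence interval 2.93 to 5.62, log2 difference -2.02 ± 0.20 SE, limma adjusted p = 0.00709). Within litters 1, 2 and 3 the log2 differences were -1.74, -0.98 and -2.10 on the first probe set and -2.01, -1.46 and -2.60 on the second. Ordered from the most negative mean difference, they stood at places 43 and 26 among all 45101 probe sets. Zic1 is on the list of changed genes that the study drew from these same arrays, so its direction here is not independent of that list. Without litter 1 the limma adjusted p was 0.0900 and 0.0507, at log2 differences of -1.54 and -2.03.

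**Figure D1:**
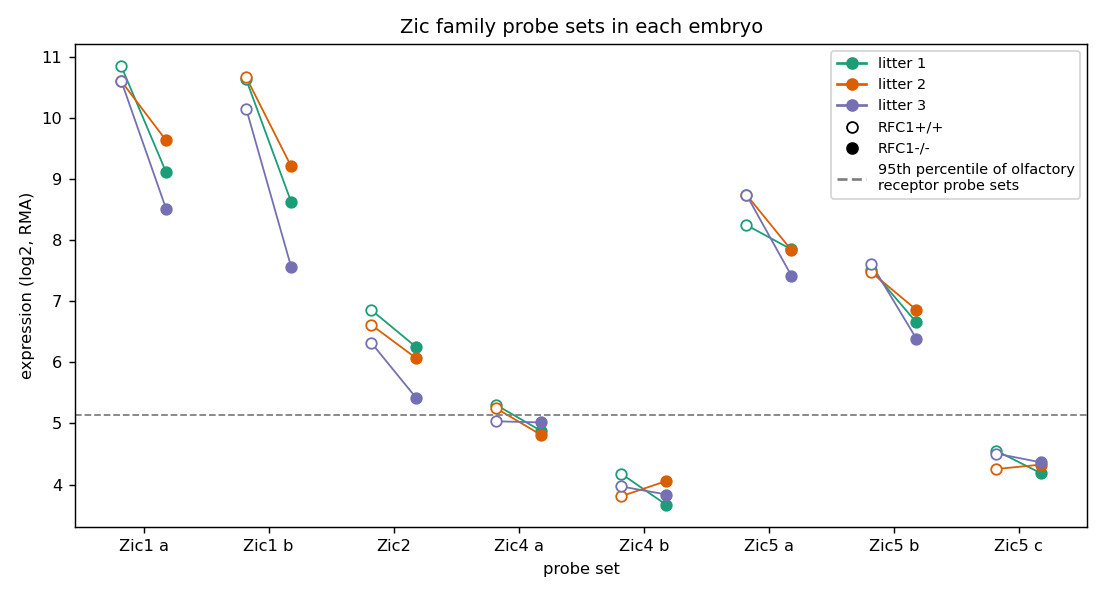
Log2 RMA expression (y axis) of the 8 probe sets of Zic1, Zic2, Zic4 and Zic5 (x axis, letters a to c numbering the probe sets of a gene from highest to lowest mean), with open circles for RFC1+/+ embryos, filled circles for RFC1-/- embryos and a line joining littermates. Both Zic1 probe sets drop in every litter, from between 10.16 and 10.86 to between 7.56 and 9.64, while Zic4 b and Zic5 c stay under the dashed background line at 5.14.

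Zic2, the holoprosencephaly gene of the family, was lower in every RFC1-/- embryo than in its littermate. Its probe set (1421301_at) read 6.86, 6.62 and 6.32 in RFC1+/+ embryos, by litter from 1 to 3, and 6.25, 6.07 and 5.42 in RFC1-/- littermates. The lowest RFC1+/+ embryo, of litter 3, lay just above the highest RFC1-/- embryo, of litter 1, with a gap of 0.07, so the groups separated narrowly and the litters themselves differed, litter 3 being lowest in both groups. Zic2 was 1.61-fold lower (95% confidence interval 1.34 to 1.93, log2 difference -0.69 ± 0.11 SE, limma adjusted p = 0.0279). Litter differences of -0.61, -0.55 and -0.91 were closer to each other than the embryos of a group were, with SDs of 0.27 in RFC1+/+ and 0.44 in RFC1-/- embryos (n = 3 each). Without the litter as a block the adjusted p was 0.155 from limma, and it was 0.161 without litter 1 and 0.0598 without litter 2.

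Zic5, which is transcribed next to Zic2 and acts in neural crest and neural tube closure, was lower on the 2 probe sets with clear signal. The brightest (1456219_at, Zic5 a) read 8.25, 8.75 and 8.75 in RFC1+/+ embryos, in the same order of litters, and 7.85, 7.84 and 7.42 in RFC1-/- littermates. No embryo of one group entered the range of the other, and litter 1 had the smallest difference, with the lowest RFC1+/+ embryo and the highest RFC1-/- embryo. Zic5 was 1.84-fold lower there (95% confidence interval 1.39 to 2.43, log2 difference -0.88 ± 0.17 SE, limma adjusted p = 0.0491). This call lay at the threshold, with an adjusted p of 0.0516 in the random-variance paired test and 0.0728 after arrays were centred on their median in limma. The second probe set (1456140_at, Zic5 b) measured 7.52, 7.48 and 7.61 in RFC1+/+ embryos, the tightest group of all 8 probe sets (SD 0.07, n = 3), and 6.66, 6.86 and 6.39 in RFC1-/- embryos. That probe set put the difference at 1.87-fold (log2 difference -0.90 ± 0.13 SE, 95% confidence interval -1.21 to -0.59, limma adjusted p = 0.0211). Litter 3 had the largest fall on both, -1.33 and -1.22. The third probe set (1425666_at, Zic5 c) measured between 4.18 and 4.55 in all 6 embryos, with overlapping groups and a log2 difference of -0.15 ± 0.12 SE (limma adjusted p = 0.663).

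Zic4, the neighbour of Zic1, stayed near the background of the array. Background was taken as 5.14, the level under which 95% of 44 probe sets of olfactory receptor genes lay. On its brighter probe set (1456417_at, Zic4 a) RFC1+/+ embryos read 5.30, 5.25 and 5.04 by litter, and RFC1-/- littermates 4.88, 4.81 and 5.02. The RFC1+/+ mean of 5.20 lay just above background and the RFC1-/- mean of 4.90 below it, and the groups were 0.02 apart at their nearest embryos, both of litter 3. The log2 difference was -0.29 (95% confidence interval -0.58 to -0.01, limma adjusted p = 0.308), and a level below background has only a bound. The other probe set (1421539_at, Zic4 b) lay between 3.67 and 4.18 in all embryos, with overlapping groups and a log2 difference of -0.13 (limma adjusted p = 0.798). Litter 2 went the other way there, at 0.25.

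**Figure D2:**
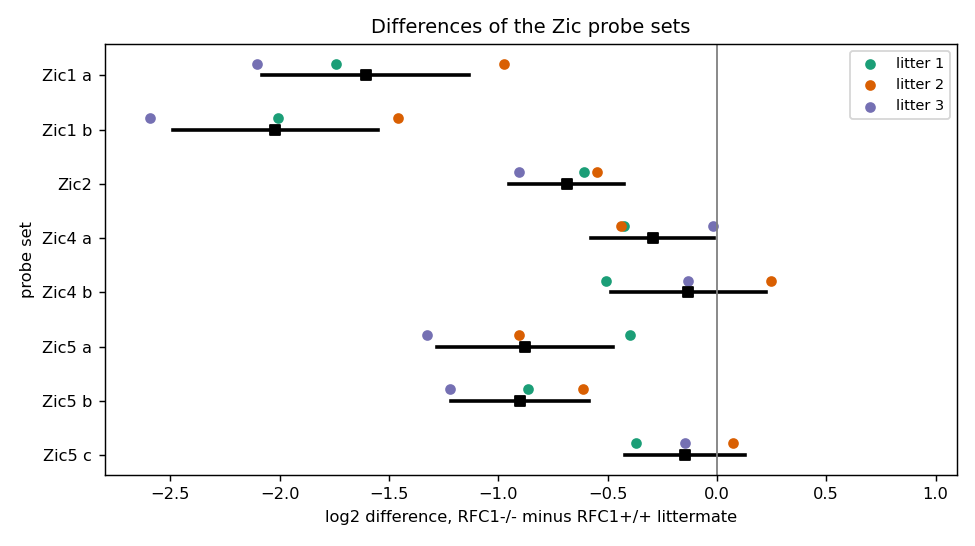
Log2 difference of each RFC1-/- embryo from its RFC1+/+ littermate (x axis) for the 8 probe sets (y axis), with coloured circles for the litters and black squares with bars for the limma estimate and its 95% confidence interval. Zic1 lies at -1.61 and -2.02, the called Zic2 and Zic5 probe sets between -0.69 and -0.90, and the intervals of Zic4 b and Zic5 c include 0.

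How the members differed from each other was compared on the brightest probe set of each gene, as the difference of their within-litter log2 differences. Zic1 minus Zic2 was -1.13, -0.43 and -1.20 in litters 1, 2 and 3, so that Zic1 had the larger fall in each (mean -0.92, SD 0.43, n = 3). Zic1 minus Zic5 was -1.34, -0.07 and -0.78, and in litter 2 the pair hardly differed. Zic2 minus Zic5 changed sign between litters, at -0.21, 0.36 and 0.42 (mean 0.19, SD 0.35). With 3 litters the exact two-sided permutation test cannot give a p under 0.25, so the test could not tell any pair apart at 0.05. Over the 6 pairs the smallest adjusted p was 0.375.

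Across the 6 arrays the members varied together to different degrees. The 2 probe sets of Zic1 had a Pearson r of 0.988 over the 6 arrays, Zic5 a and Zic5 b one of 0.934, and Zic4 a and Zic4 b one of 0.308. Between genes, Zic1 a had an r of 0.885 with Zic2, 0.890 with Zic5 a and 0.662 with Zic4 a. These 6 arrays share the division into 2 genotypes, so genes that differ between them tend to correlate, and the values are a description. Among 10498 genes with a mean level of at least 6, 841 followed Zic1 more closely than Zic2 did, and 810 more closely than Zic5 did. The genes most like Zic1 were Kif2a, which encodes a kinesin that shortens microtubules (r = 0.998), Brwd1, a bromodomain protein (r = 0.997), Dclk1, a microtubule-bound kinase of young neurons, Zfp105, a zinc finger protein, and Dmrta2, a transcription factor of the dorsal forebrain (r = 0.996 each). Of these 5, Dclk1 and Dmrta2 were themselves called lower, at log2 differences of -1.36 and -0.87. The genes most like Zic2 were D130020L05Rik (r = 0.998), Map2, a microtubule protein of neurons that was itself called lower at -0.99 (r = 0.981), Neto2 (r = 0.981), Fam168b (r = 0.979) and Rgs10 (r = 0.978), and those most like Zic5 were Nsdhl, an enzyme of cholesterol synthesis (r = 0.997), Zbtb6 (r = 0.996), Zfp184, Cbx1 and Tiparp (r = 0.994 each). For Zic4 they were Igtp (r = 0.995), Cep112 (r = 0.993), R74862 (r = 0.988), Rnf20 (r = 0.985) and Sptlc1 (r = 0.984). Zic4 a, the probe set used, had a 6-array mean of 5.05, below background, so these matches need not follow Zic4 expression.

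Genes of the territories in which Zic genes act were read on the brightest probe set of each gene, of which 1.33% were called lower and 2.96% higher among all 18194 genes, with a median log2 difference of -0.01. In the dorsal neural tube and roof plate, 5 of 16 measured genes were called lower and 0 higher, and 15 had a mean difference below 0. Olig3, a factor of dorsal interneuron progenitors, was 2.71-fold lower, Msx3, a homeobox gene of the dorsal neural tube, 2.66-fold, Pax3, a paired-box gene of dorsal neural tube and somite, 2.39-fold, and Lhx2, a factor of forebrain progenitors and dorsal interneurons, 2.07-fold. The list as a whole had a median log2 difference of -0.16, and 11 of its genes did not pass. Zic1, at -1.61 on its brighter probe set, had a more negative mean difference than each of these 16 genes, of which Olig3 was the lowest at -1.44. Within litters this order did not hold throughout, since Olig3 differed by more than Zic1 a in litter 1 (-1.96) and slightly more in litter 2, where Msx3 did too (-1.41).

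Ventral genes went both ways. Shh, the morphogen of floor plate and notochord, rose 1.56-fold and Foxa2, a forkhead gene of the same cells and of endoderm, 1.89-fold. Both calls were lost without litter 1 and without litter 2. Under the variation filter of the methods (probe sets with an array at least 1.5-fold from the median) Foxa2 was not called. Shh did not pass that filter and was not tested under it. Olig2, a factor of motor neuron progenitors, was called lower, from a mean of 5.76 to one of 4.64, below background. The other 8 of the 11 measured ventral genes did not pass, and the list median was -0.07. In neural crest 2 of 13 genes were called, both lower, Tfap2b, an AP-2 factor, by 2.15-fold and Sox9, a crest and cartilage factor, by 1.62-fold. The median of the crest list was -0.31. For the somite and dermomyotome list 5 of 15 were called lower and 0 higher, with a median of -0.58. Pax3, which is also on the dorsal list, was 2.39-fold lower and Meox2, a somite homeobox gene, 1.95-fold. Dmrt2, a factor of the dermomyotome, and Myog, a factor of muscle differentiation, were called lower too, with RFC1-/- means of 4.40 and 5.06 below background, so that their folds are not known.

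Zic1 had a more negative difference than the median neural progenitor gene in each litter. Of 14 measured genes 5 were called lower and 0 higher, with medians of -0.56, -0.37 and -0.91 in litters 1, 2 and 3. Fabp7, a fatty acid binding protein of radial glia, was 2.72-fold lower, Hes5, a Notch target, 2.71-fold, Pax6, an eye and neural tube factor, 2.47-fold, and Sox1, a pan-neural factor, 1.88-fold. Zic1 did not have a larger fall than each of these genes in every litter. In litter 2 Pax6 (-1.12) and Hes5 (-0.998) differed by more than Zic1 a (-0.975). In litters 1 and 3 Zic1 a had the larger fall. The margin in litter 3 was narrow, at -2.10 against -2.03 for Hes5 and -2.02 for Fabp7. Relative to the median of this list, Zic1 a stood at -1.19, -0.60 and -1.19 in the 3 litters. Zic2 stood at -0.05, -0.18 and 0.01, close to the list. Zic5 a stood at 0.16, -0.54 and -0.41, above the median in litter 1, and Zic5 b at -0.31, -0.24 and -0.31. Zic4 a stood at 0.13, -0.07 and 0.90. These comparisons set the members beside a median or single genes and carry no test.

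**Figure D3:**
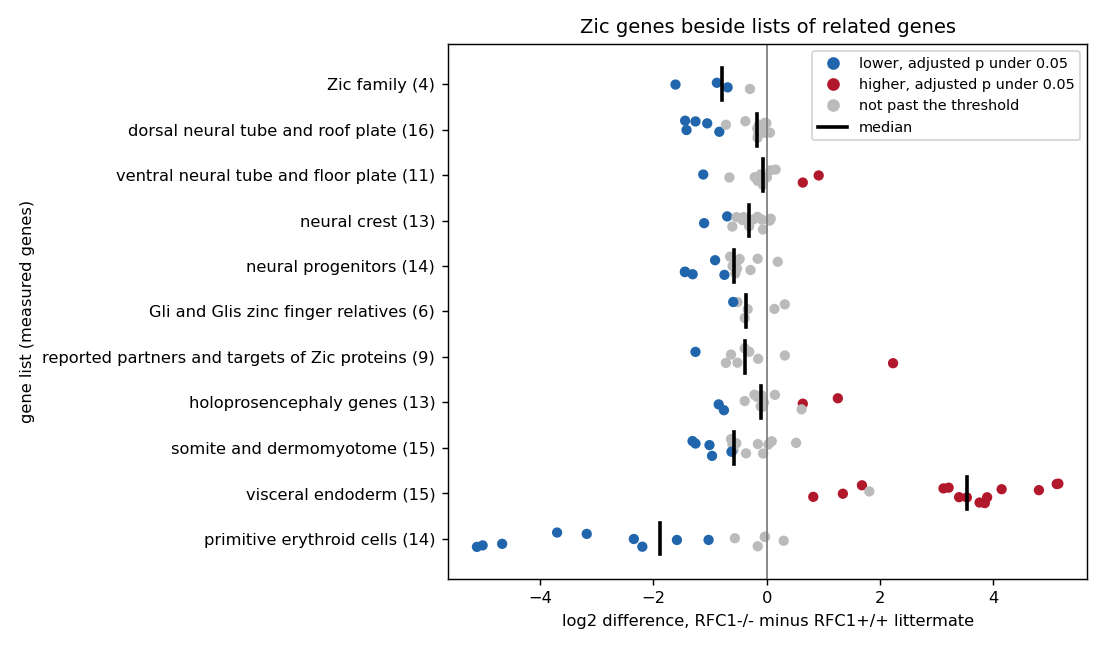
Mean within-litter log2 difference between genotypes (x axis, negative where RFC1-/- was lower) of the 4 Zic genes and of each measured gene on 10 lists (y axis, number of genes in brackets), each gene on its brightest probe set, with black bars for medians and colours for calls in limma. The Zic median of -0.78 lies beside -0.58 for neural progenitors, -0.16 for the dorsal list and -0.07 for the ventral list, between 3.53 for visceral endoderm and -1.89 for primitive erythroid genes.

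Among the 6 Gli and Glis genes, whose zinc fingers are related to those of the Zic proteins, 1 was called. Glis3, of the Gli-similar group, was lower (log2 difference -0.59 ± 0.10 SE, limma adjusted p = 0.0359), a call lost under the variation filter, without the litter block, and without litter 1 or litter 2. Gli3, the main repressor of hedgehog targets, measured -0.51 (limma adjusted p = 0.0671), and Gli2, the main activator, -0.39 (limma adjusted p = 0.136). Gli1, a target of the pathway, measured 0.32 (limma adjusted p = 0.418), with overlapping groups and a difference of -0.16 in litter 3. Among 9 genes named in background knowledge as partners or targets of Zic proteins, Pax3 was called lower and Apoe higher. Apoe, whose promoter Zic1 and Zic2 have been described to activate and which yolk sac endoderm also makes, was 4.70-fold higher. Myf5, a muscle determination gene, and Atoh1, a factor of cerebellar granule cell precursors, measured -0.63 and -0.72 (limma adjusted p = 0.0596 and 0.0821). The RFC1-/- mean of Atoh1, 4.97, lay below background, so its difference is only a bound.

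Other genes of holoprosencephaly, the forebrain defect linked to Zic2, were called in both directions. Boc and Gas1, co-receptors for hedgehog ligands, were 1.80-fold and 1.69-fold lower. Tdgf1, a co-receptor for Nodal, rose 2.39-fold and Shh 1.56-fold. The other 9 of the 13 measured genes did not pass, and the list median was -0.09. Among these 9 were Six3, a forebrain homeobox gene (-0.16), and Ptch1, the receptor for hedgehog ligands (0.62, limma adjusted p = 0.0851). Without litter 1, limma called 0 genes of the ventral, crest, progenitor, Gli and Glis and holoprosencephaly lists and 1 each of the dorsal and somite lists.

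Markers of other tissues moved with genotype on the same arrays. Of 15 measured visceral endoderm genes, which mark the yolk sac epithelium, 14 were called higher in RFC1-/- embryos and 0 lower. Of the 15, 0 had a mean difference below 0. The mean log2 level of the list ran from 6.72 to 7.87 in RFC1+/+ embryos and from 9.56 to 11.28 in RFC1-/- embryos. The median difference of this list was 2.82, 3.18 and 4.65 in litters 1, 2 and 3. Litter 3 had the largest median rise on this list and the largest falls on the 5 called Zic probe sets. The median rise was larger in litter 2 than in litter 1, but single genes went both ways. Ttr rose by 3.91 in litter 2 against 3.12 in litter 1, and Spink1 by 3.23 against 3.86. Litter 2 had smaller falls than litter 1 on both Zic1 probe sets, Zic2 and Zic5 b. On Zic5 a its fall was larger (-0.91 against -0.40). The RFC1+/+ list mean was highest in litter 1 (7.87). By RFC1-/- list mean the order was litter 2 (9.56), litter 1 (10.48) and litter 3 (11.28), from lowest up. In RFC1-/- embryos both Zic1 probe sets and Zic5 b had the reverse order, while Zic2 and Zic5 a were highest in litter 1. Orders of 3 litters are a description and carry no test. All 15 had a 6-array mean above background, though the RFC1+/+ mean of Amn, 4.96, lay below it. The largest differences were those of Cubn, a receptor of the endocytic epithelium (35.5-fold higher), and Apoa1, an apolipoprotein (34.8-fold higher). In RFC1+/+ embryos of litters 2 and 3 Cubn read 5.23 and 5.27, just above background, against 7.90 in litter 1. Log2 differences by litter ran from 3.50 to 7.12 for Cubn and from 3.96 to 7.11 for Apoa1, so neither fold is exact. Of 14 primitive erythroid genes 9 were called lower and 0 higher, their list mean running from 7.68 to 8.21 in RFC1+/+ and from 5.55 to 6.13 in RFC1-/- embryos, with the largest fall in litter 1. Hba-x, an embryonic globin, was 34.6-fold lower. Slc4a1, which exchanges anions across the red cell surface, went from a mean of 8.92 to one of 3.91, which is below background and so gives no exact fold. Without litter 1, 9 endoderm and 6 erythroid genes were called. By the methods, the membranes around each embryo had been removed and used for genotyping. The part of these shifts in the Zic differences was not tested.

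**Figure D4:**
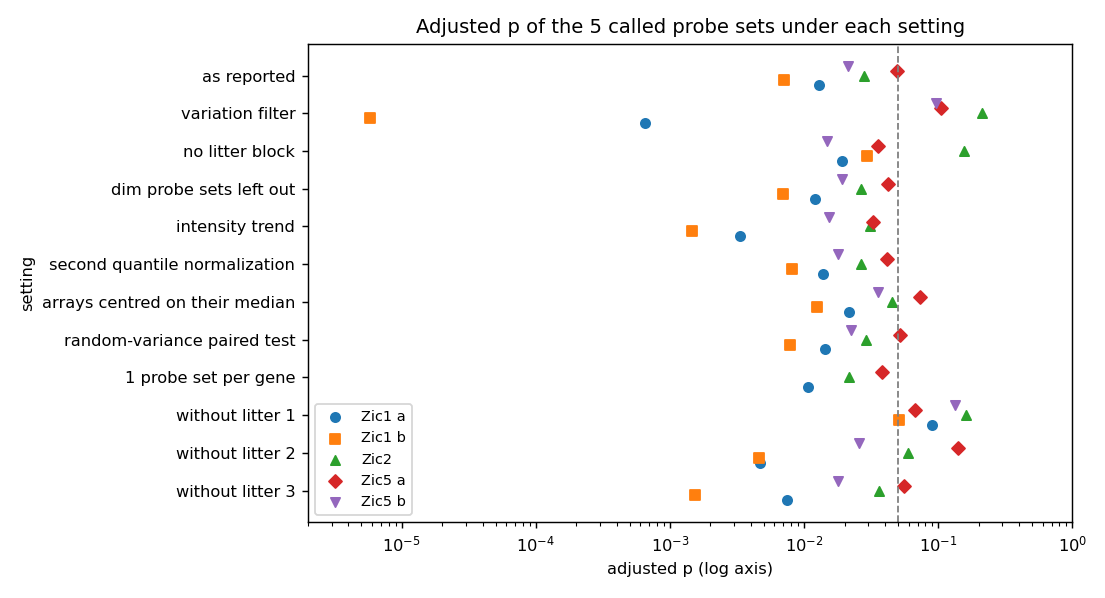
Adjusted p (x axis, log scale) of the 5 called Zic probe sets (symbols) under each processing setting (y axis), with the dashed line at 0.05. Both Zic1 probe sets stay left of the line except without litter 1 (0.0900 and 0.0507), while Zic5 a crosses it in 6 of 11 alternatives.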

How the data were processed

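Each of 6 whole embryos gave the RNA for 1 Affymetrix mouse expression array. The authors deposited log2 expression values for 45101 probe sets, which they made with RMA: background was corrected, arrays were quantile normalized and probes were summarised by median polish. The version of the software was not given in the sources used here. No column of values was left unused. Precision is limited by having 6 arrays, which carry no depth.

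Gene names came from the annotation of the platform, where 34958 probe sets had 1 symbol, 932 several and 9211 none, and 34754 of the first matched a RefSeq gene ID, with 0 symbols changed. Differences were fitted with limma 3.58.1 in R 4.3.3 on all probe sets, with the litter as a block, and p-values were adjusted over all probe sets tested by the Benjamini-Hochberg method. Pairs come from the labels and the methods, which name littermates. Deviations of littermates from their group means correlated at 0.10, -0.05 and -0.15 in litters 1, 2 and 3. Nothing else in the labels divides the samples, and the fit was tested on simulated data. Tables were made in Python 3.11.15 with pandas 2.3.3, numpy 2.4.6 and scipy 1.17.1, and plots with matplotlib 3.10.9.

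The members and lists were chosen with earlier results of these data known. Named genes were every member probe set and, from each of 10 lists, up to 4 called genes with the largest difference together with any called against the direction of most; for likeness, the 5 genes with the highest r for each member. Gli1, Gli2, Gli3, Myf5, Atoh1, Six3, Ptch1 and Amn fall outside this rule and were named after their values were seen. Of 134 list entries, 8 had no probe set of their own symbol and were not analysed here, and several genes stand on more than 1 list. Alternatives were the variation filter of the methods (2982 probe sets with an array at least 1.5-fold from the median), dim probe sets left out, no litter block, an intensity trend, a second quantile normalization, centring, the random-variance paired test of the methods, 1 probe set per gene, and each litter left out.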

Additional observations from a re-analysis of the deposited data

How the results depend on the processing

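Across the alternatives every called Zic probe set stayed lower in RFC1-/- embryos, and Zic4 passed under none. Taking each Zic probe set under each alternative, 63 values kept direction and side of the threshold, 14 lost the call and 1 reversed: Zic4 b, a probe set at background, ran from -0.32 to 0.0589 when litters were left out, the latter without litter 1. Under the variation filter 2 of the 5 Zic probe sets that passed it were called, both of Zic1, with 491 calls among 2982 probe sets and a common standard error of 0.39. With 1 probe set per gene 3 of the 4 genes were called (Zic1, Zic2 and Zic5). Without the litters as a replicate block 4 of 8 were called, Zic2 being lost, and the total was 1388. Leaving out 1 litter gave between 0 and 4 called Zic probe sets and between 129 and 1585 calls in all, the lowest both without litter 1. Under the variation filter the calls of the lists went from 5 to 2 for somite, 5 to 3 for progenitor, 4 to 1 for holoprosencephaly and 2 to 1 for crest genes. That filter left 7 of 15 somite, 8 of 14 progenitor, 4 of 13 holoprosencephaly and 3 of 13 crest genes to be tested. A lost call there can thus be a gene left out before the test. The cause of the other lost calls was not tested.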
